A study of Oryctolagus cuniculus with 4 samples.

Results

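TIMP1 and TIMP4 encode metalloprotease inhibitors, and their signal was followed over 4 arrays of rabbit ligamentum flavum. All probes whose accession is a RefSeq transcript of rabbit TIMP1 or TIMP4 were taken. This gave 2 probes of 43603, 1 for each gene, and 2 genes of the 1489 that could be named. Each probe had 1 spot per array. The genes were picked with their ratios between arrays known, so those ratios are given as a description. TIMP3, of the same family, also had 1 probe and serves as a comparison, and TIMP2 had 0 named probes.

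The ligamentum flavum is an elastic ligament at the back of the spinal canal. The study compared it between levels of the lumbar spine of male rabbits aged 34 weeks, 16 weeks after an operation at 18 weeks. In that operation the supraspinal muscle was resected at L3-4, and the spine was fused with instruments on either side, posterolaterally at L2-3 and at L4-5. The question was how gene expression differs under mechanical stress, which the study places at the unfused level between the fusions. The 4 groups were that intervertebral stress concentration (ISC) level at L3/4, its control from the same level (the L3/4 control), the fused levels, which are L2/3 with L4/5, and their control (the L2/3-L4/5 control). All groups share age, sex and time. The sources used here do not give whether control rabbits had any operation, how many animals gave RNA to a sample, or how tissue of L2/3 and L4/5 was combined. Muscle resection and stress concentration coincide at the ISC level and cannot be told apart.

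TIMPs are secreted proteins that fit into the active site of matrix metalloproteases (MMPs) and block them, so they set limits on the breakdown of collagen and other matrix. TIMP1 is soluble, binds the proform of MMP9, inhibits membrane-type MMPs poorly, and is induced by growth factors and cytokines; it also binds the cell surface protein CD63. TIMP4 has a narrower tissue distribution, with heart and fat among its known sites, and it binds MMP2. TIMP3 differs from both in that it is held in the extracellular matrix. It is also known as an inhibitor of ADAM proteases. In ligament, as in tendon, the balance of MMPs and TIMPs is a known part of matrix turnover.

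Each group was measured on 1 single-colour array, all 4 on 1 slide. Without replicates, no difference below has a test, none can be held against variation from rabbit to rabbit, and precision is limited by how few arrays there are. Levels are log2 signal relative to the 75th percentile of the array's own probes, and ratios are differences of these levels. The ± value is the scanner software's error of the spot, which is technical. It was 0.14 on the log2 scale for every TIMP1 and TIMP3 spot, whatever the signal. With 1 spot per probe it is not a spread between spots. A difference of 2-fold is used as a fixed size and not as a test. Between 59.6% and 67.9% of probes were well above background per array, 0 spots were saturated, and the TIMP spots carried no outlier mark. The 5 tendon and ligament marker genes that could be named of 15 listed were well above background on all arrays, except that TNMD was not on the fused array. Levels of different genes come from different probes and are not set against each other.

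TIMP1 had high signal on the ISC array and on the L2/3-L4/5 control, and lower signal on the other pair. The processed signal of its spot was 786 ± 78.6 at the ISC level, 217 ± 21.7 in the L3/4 control, 292 ± 29.2 at the fused levels and 595 ± 59.5 in the L2/3-L4/5 control. The spot stood 27.5, 8.93, 12.2 and 25.7 times over its local background, in the same order. On the scaled log2 axis its level was 3.07 at the ISC level, 2.02 in the L3/4 control, 1.77 at the fused levels and 3.03 in the L2/3-L4/5 control, each with a spot error of 0.14. The highest pair, ISC level and L2/3-L4/5 control, lay 0.03 ± 0.20 apart, less than the spot error. The lowest pair, L3/4 control and fused levels, lay 0.25 ± 0.20 apart, and its order turned without scaling and under 1 background correction. TIMP1 was thus well measured on all arrays, and its whole range was 1.29.

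TIMP4 was dim, and the fused array was its brightest. Its processed signal was 44.5 ± 4.66 at the ISC level, 1.83 ± 1.23 in the L3/4 control, 128 ± 12.9 at the fused levels and 12.2 ± 2.03 in the L2/3-L4/5 control. The spot read 77.5 over a local background of 29 at the ISC level, 33 over 31 in the L3/4 control, 163 over 32 at the fused levels and 44 over 29.5 in the L2/3-L4/5 control. In the L3/4 control the probe was not well above background, so it has only a bound there. Its scaled level was -1.07 ± 0.15 at the ISC level, 0.58 ± 0.15 at the fused levels and -2.57 ± 0.24 in the L2/3-L4/5 control. The lowest signal well above background in the L3/4 control corresponds to a level of -3.15 there. The order was therefore fused levels, ISC level, L2/3-L4/5 control, with the L3/4 control below its limit, and each measured step was larger than its spot error.

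**Figure D1:**
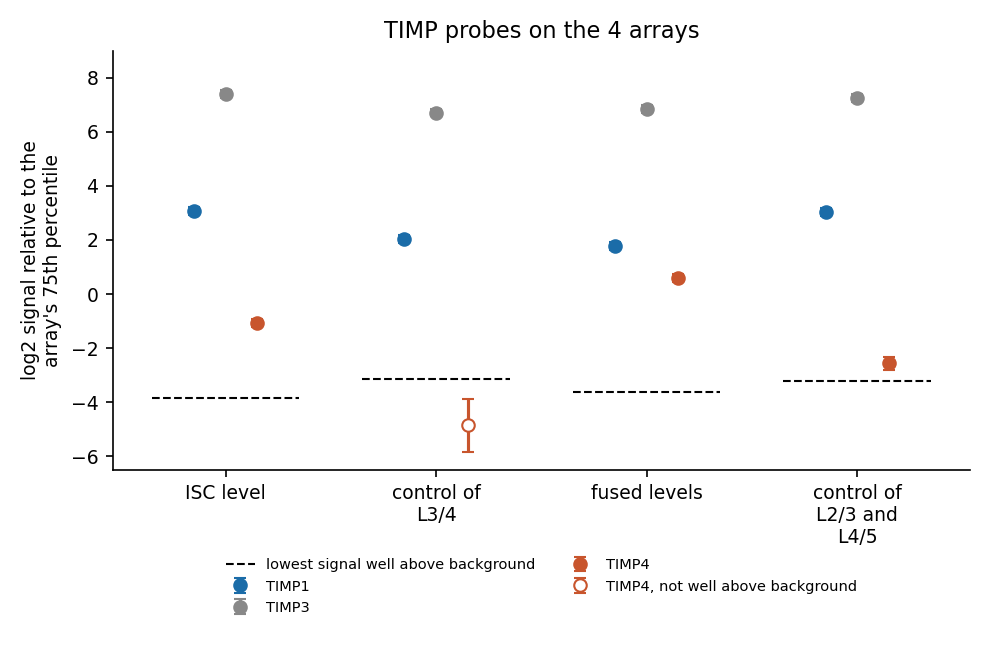
Log2 signal relative to the array's 75th percentile (vertical axis) for TIMP1, TIMP3 and TIMP4 on the 4 arrays (horizontal axis). Bars are the scanner software's spot error, dashed lines the lowest signal well above background, and the open point is TIMP4 in the L3/4 control, which has only a bound; TIMP1 lies between 1.77 and 3.07, and TIMP4 reaches 0.58 at the fused levels.

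At the ISC level both inhibitors had higher signal than in the L3/4 control. TIMP1 was higher by 1.05 ± 0.20 on the log2 scale, or 2.07-fold, just past 2-fold. TIMP4 was at least 4.22-fold higher, a bound from the lowest signal well above background in the control. The background was 13731 features measured on both arrays, of which 9.08% lay at 2-fold or more above the control, and 1142 (8.32%) had a higher ratio than TIMP1. The median of all those features was -0.17. Against the other control, the ISC level was at 0.03 ± 0.20 for TIMP1, whereas for TIMP4 it was higher by 1.5 ± 0.28, or 2.82-fold, with 134 of 14112 features (0.95%) higher. With normexp background correction at an offset of 50 both TIMP4 values lost their 2-fold size, the first at a bound of 0.41 and the second at 0.37 on the log2 scale.

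At the fused levels the inhibitors went opposite ways. TIMP1 was lower than in the L2/3-L4/5 control, at -1.26 ± 0.20, or 2.39-fold lower. TIMP4 was higher by 3.15 ± 0.28, or 8.89-fold, and by 1.30 on the log2 scale with that normexp correction. Of 13715 features, 9.15% were at least 2-fold lower and 7.82% at least 2-fold higher, and the median was -0.14. There were 759 features (5.53%) with a lower ratio than TIMP1 and 194 (1.41%) with a higher ratio than TIMP4. Against the L3/4 control, the fused levels were at -0.25 ± 0.20 for TIMP1 and at least 13.3-fold higher for TIMP4.

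The controls themselves differed. TIMP1 was at -1.01 ± 0.20 in the L3/4 control against the L2/3-L4/5 control, or 2.02-fold lower, close in size to the ISC ratio. Of 13137 features, 9.19% lay 2-fold or more below and 8.38% as far above in this comparison, and 1187 (9.04%) lay below TIMP1. For TIMP4 the bound was at least 1.5-fold lower in the L3/4 control. With the mean of both controls as reference, a choice made after the data were seen, TIMP1 was at 0.54 for the ISC level and -0.75 for the fused levels, both under 2-fold. TIMP4 then had bounds of 1.79 and 3.44 on the log2 scale.

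The operated levels compared directly gave opposite directions for the inhibitors. TIMP1 was higher at the ISC level than at the fused levels by 1.29 ± 0.20, or 2.45-fold. TIMP4 was at -1.66 ± 0.21, or 3.16-fold lower at the ISC level, and at -0.93, under 2-fold, with normexp. On both operated arrays TIMP4 was above both control arrays by 1.5 or more on the log2 scale, its smallest measured gap. Of the 13568 features well above background on the 3 arrays where TIMP4 was, 61 (0.45%) were at least 2-fold above both controls on both operated arrays, and 10 had a larger smallest gap. TIMP4 was among the former because of the contrasts it was chosen on, so the count is only a description.

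**Figure D2:**
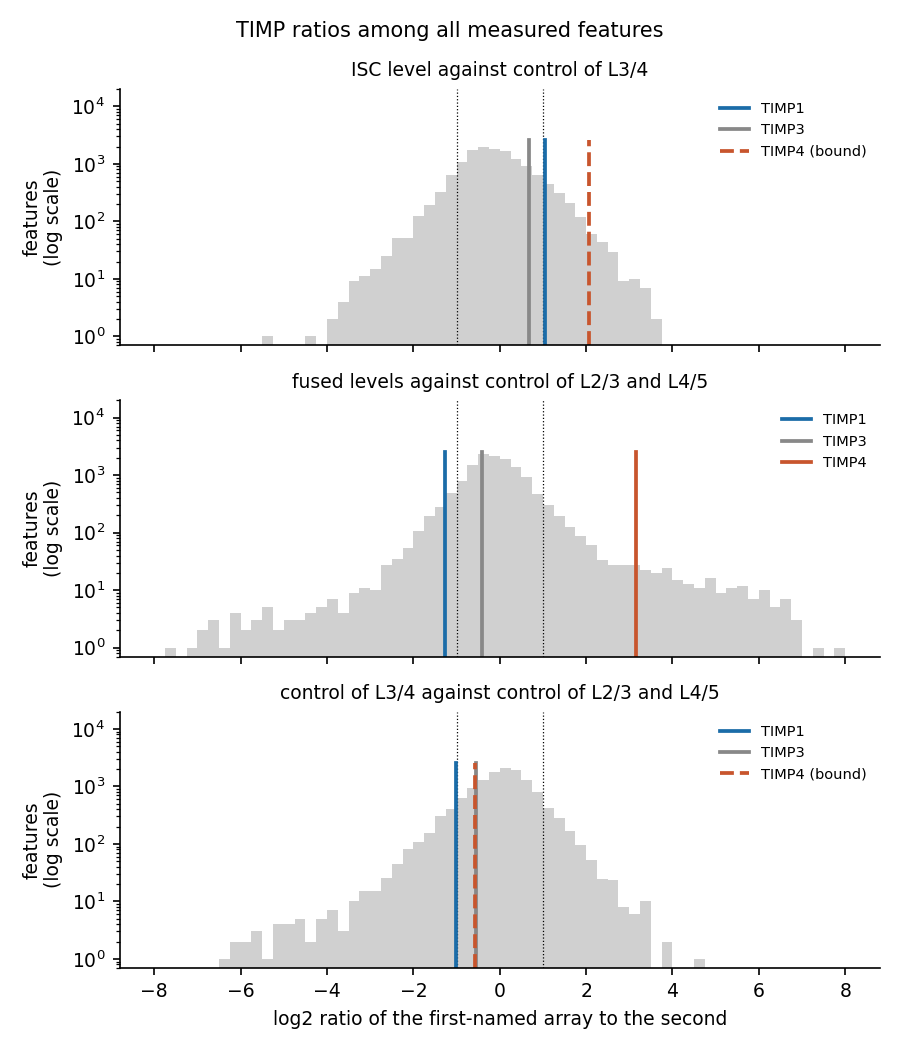
Number of features (vertical axis, log scale) by log2 ratio (horizontal axis) for the ISC level, the fused levels and the controls, with dotted lines at 2-fold. Coloured lines mark TIMP1, TIMP3 and TIMP4, dashed where the value is a bound; TIMP1 is at 1.05, -1.26 and -1.01, and TIMP4 at 3.15 for the fused levels is far to the right.

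A difference between the ratios of a pair of genes does not depend on a scaling by 1 factor per array, but it does depend on the background correction. At the fused levels the ratio of TIMP4 exceeded that of TIMP1 by 4.41 on the log2 scale, or 21.3-fold. For the ISC level against the L2/3-L4/5 control it exceeded it by 1.46, or 2.75-fold, and for the ISC level against the fused levels it was below it, at -2.95, or 7.74-fold. With normexp at an offset of 50 each of these gaps was smaller. The ratios of TIMP4 and TIMP1 were then 1.30 and -1.0 at the fused levels. They were 0.37 and 0.11 for the ISC level against the L2/3-L4/5 control. For the ISC level against the fused levels they were -0.93 and 1.12. TIMP3 was under 2-fold in every comparison of the values reported. Its level was 7.39 at the ISC level, 6.71 in the L3/4 control, 6.86 at the fused levels and 7.27 in the L2/3-L4/5 control, the order of TIMP1 except that its lowest array was the L3/4 control. TIMP3 was at 0.67 ± 0.20 for the ISC level and -0.41 ± 0.20 for the fused levels. It reached 2-fold for the ISC level with quantile normalization, at 1.16, with cyclic loess, at 1.22, without scaling, at 1.48, and with normexp background correction, at 1.09. Quantile normalization and cyclic loess also took it past 2-fold between the controls, to -1.06 and -1.003, from -0.55. TIMP3 lay below TIMP1 by a difference of ratios of -0.37 for the ISC level, and above it by 0.85 for the fused levels. The ISC order turned with cyclic loess, where TIMP3 was at 1.22 and TIMP1 at 1.18. With quantile normalization they were at 1.16 and 1.20.

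The MMPs are the enzymes that TIMPs block. Of 22 listed MMP genes 7 could be named on the array, and 4 were measured on both arrays for the ISC level and 3 for the fused levels. At the ISC level 1 of 4 was at least 2-fold higher and 0 lower, where 9.08% and 10.5% of all features were, and the median was 0.02 against -0.17 for all features. MMP13, a collagenase, had levels of -0.43 at the ISC level, -2.69 in the L3/4 control, -0.33 at the fused levels and -0.88 in the L2/3-L4/5 control. It was higher by 2.25 at the ISC level and stood at 0.55 at the fused levels, where its sign turned under 1 alternative. Both ratios rest on 1 of its 3 probes, and its L3/4 control level is near that array's limit of -3.15. MMP9, a gelatinase, was well above background on the ISC array at -2.0 and on the fused array at -3.29, and on no control array. Its fused level is under -3.22, the lowest level well above background in the L2/3-L4/5 control, so that comparison gives no bound. Its ISC bound was at least 2.22-fold higher than in the control.

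None of the 3 MMPs measured at the fused levels was 2-fold apart, where 7.82% of all features were higher and 9.15% lower. Their median was -0.34 against -0.14 for all features. MMP2, the gelatinase that TIMP4 binds, had levels of 3.85, 3.37, 2.73 and 3.43 in the order of ISC level, L3/4 control, fused levels and L2/3-L4/5 control. Its ratios were 0.48 for the ISC level and -0.70 for the fused levels, and its probes ranged from 0.48 to 1.28 and from -1.10 to -0.70. The stromelysin MMP3 was at -0.44 and -0.34, and the collagenase MMP1, measured for the ISC level alone, at -0.46. Without scaling, the ISC values of MMP1 and MMP3 were above 0. MMP12 was above background on the ISC array alone, at -3.42, and MMP14 on no array. That MMP12 level is under -3.15, the lowest level well above background in the L3/4 control, so it gives no bound. The ADAM and ADAMTS list had 0 of 27 genes named. The ratio of MMP13 exceeded that of TIMP1 by 1.21 at the ISC level and by 1.81 at the fused levels, and that of MMP2 was below it by a difference of -0.57 at the ISC level and above it by 0.56 at the fused levels.

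Of 21 genes of other protease inhibitors 4 could be named and 3 were measured in each comparison. The shares past 2-fold over all features, against which the counts of this list are read, were 9.08% higher and 10.5% lower for the ISC level (median -0.17) and 7.82% higher and 9.15% lower for the fused levels (median -0.14). For the ISC level 0 were at least 2-fold higher and 1 lower, with a median of -0.32, and at the fused levels 0 were 2-fold apart, with a median of -0.46. WAP, a whey acidic protein, was at -1.13 for the ISC level and -0.69 for the fused levels. The cystatin CST3, which inhibits cysteine cathepsins, was at -0.32 and -0.46, and TFPI, an inhibitor of the tissue factor pathway, at 0.21 and 0.82.

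The proteases of the plasminogen system and their relatives had 4 of 17 genes named and all 4 measured. For the ISC level 2 lay 2-fold or more above the control and 0 below, where 9.08% and 10.5% of all features did, and the median was 0.91 against -0.17 for all features. These were CTSK, a collagen-degrading cysteine protease, at 1.27, and MME, a membrane metallopeptidase, at 1.44. At the fused levels 1 lay 2-fold or more above its control and 0 below, where 7.82% and 9.15% of all features did, and the median was 0.30 against -0.14. That gene was PLAU, the urokinase plasminogen activator, at 1.01, but its probes ranged from -0.58 to 1.01, so the direction depends on the probe.

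Proteins known to bind TIMPs had 7 of 10 genes named, with 5 measured for the ISC level and 4 for the fused levels. Among the 5, 0 were at least 2-fold higher and 1 lower, beside 9.08% and 10.5% of all features, and the median was 0.28 against -0.17. Among the 4, 0 were 2-fold apart, beside 7.82% and 9.15% of all features, and the median was -0.11 against -0.14. CD63, which binds TIMP1 at the cell surface, was at -0.35 and -0.04, and its signs turned under some alternatives. ITGB1, an integrin chain, was at 0.28 and -0.18, and BSG, an inducer of MMPs, at 0.92 and -0.04. KDR, a receptor of vascular endothelial growth factor, was the 1 below, at -1.32.

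Genes of factors known to regulate TIMP1 had 10 of 30 named. For the ISC level 7 were measured. Past 2-fold, 2 were higher and 2 lower, beside 9.08% and 10.5% of all features, and the median was 0.32 against -0.17. TGFB2, a transforming growth factor, was at 1.27 and FGF2, a fibroblast growth factor, at 1.15, while the cytokines LIF and IL1A were at -1.77 and -1.49. For the fused levels 5 were measured. Past 2-fold, 0 were higher and 1 was lower, beside 7.82% and 9.15% of all features, and the median was -0.17 against -0.14. The 1 was JUN, a subunit of the transcription factor AP-1, at -1.01, which was under 2-fold in 5 of 10 alternatives. JUN was at 0.82 for the ISC level. The inflammatory cytokine IL1B was at least 21.8-fold higher at the fused levels, with a level of 1.23 there. IL6, TNF and IL10 were not well above background on any array.

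Of collagens and other protease substrates 7 of 26 were named and all 7 were measured. Beside the L3/4 control, 2 were at least 2-fold higher and 0 lower on the ISC array, beside 9.08% and 10.5% of all features, and the median was -0.08 against -0.17. At the fused levels 0 were at least 2-fold higher and 3 lower, beside 7.82% and 9.15% of all features, and the median was -0.73 against -0.14. BGN, the small proteoglycan biglycan, had levels of 5.77 at the ISC level, 4.50 in the L3/4 control, 3.55 at the fused levels and 5.63 in the L2/3-L4/5 control. Its order over the arrays was that of TIMP1, with ratios of 1.27 and -2.07, and its dimmer probe was at 0.47 for the ISC level. COL8A1, a short-chain collagen, had levels of 6.03, 4.73, 3.16 and 4.84, with ratios of 1.30 and -1.68. LUM, the proteoglycan lumican, was at -0.57 and -1.36. COL1A2, which encodes part of type I collagen, stood at 0.89 and -0.62, under 2-fold, and reached 2-fold for the ISC level in 7 of 10 alternatives. Set against TIMP1, the ratio of BGN was higher by 0.22 at the ISC level and below it at -0.81 for the fused levels, and that of COL8A1 was higher by 0.25 and below it at -0.42.

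How firmly these values stand against the processing differed by gene. COL8A1 for both operated levels, CTSK for the ISC level, and BGN and LUM for the fused levels kept their 2-fold difference in 10 of 10 alternatives. TGFB2 and FGF2 kept it for the ISC level in 9 of 10, BGN and LIF in 8 of 10, WAP in 7 of 10, MMP13 and MME in 8 of 9, and IL1A and KDR in 6 of 9. For the ISC level MMP13 and MME were each measured with 1 of 3 probes, IL1A with 1 of 4 and KDR with 1 of 6. Their alternatives ranged from 0.63 to 3.07 for MMP13 and from 0.16 to 3.05 for MME. For IL1A they ranged from -1.66 to -0.49, and for KDR from -1.44 to -0.51. The sign turned in at least 1 alternative for CD63, CST3, LUM, TFPI, MMP1 and MMP3 at the ISC level and for CD63, BSG, ITGB1, MMP13 and PLAU at the fused levels. It also turned for the list members OGN, COL2A1, DCN, IL1B and PLAT at the ISC level and for DCN and LIF at the fused levels. Leaving out the scaling moved the median of all features to 0.65 for the ISC level and 0.097 for the fused levels.

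**Figure D3:**
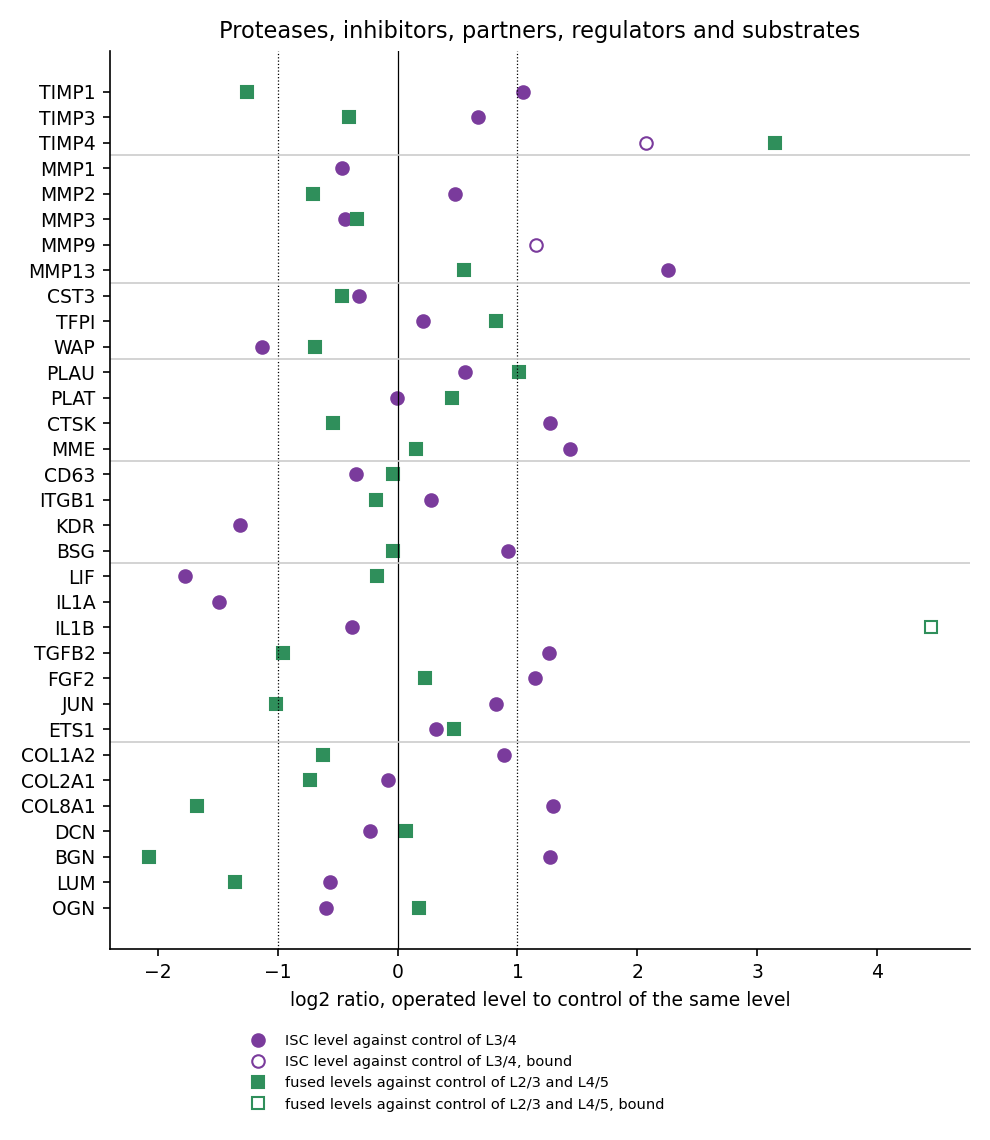
Log2 ratio of each operated level to its control (horizontal axis) for genes of the TIMP, protease, inhibitor, partner, regulator and substrate lists, with grey lines between lists, circles for the ISC level and squares for the fused levels. Open symbols are bounds and dotted lines mark 2-fold; BGN and COL8A1 share the signs of TIMP1, positive at the ISC level and negative at the fused levels.

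The named genes with the pattern most like TIMP1 were found by the root mean square (RMS) difference of log2 signal after each gene's mean over the 4 arrays was taken off. Among 885 genes well above background on all 4 arrays the nearest were STXBP4, a syntaxin-binding protein, at 0.12, AP4S1, a subunit of an adaptor complex, at 0.13, CDON, a cell surface receptor, at 0.13, TGFB2 at 0.14, and SGCB, a sarcoglycan, at 0.16. The median gene was at 0.68. TGFB2, which regulates TIMP1, had levels of 0.97, -0.29, -0.20 and 0.75 in the order of ISC level, L3/4 control, fused levels and L2/3-L4/5 control. TIMP3 was at 0.34, with 45 genes nearer. With 4 arrays and 885 genes such likeness is a description.

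For TIMP4 the genes found depended on how its L3/4 control array, where it was not well above background, entered the distance. The comparison used 944 genes well above background on the 3 arrays where TIMP4 was. With the signal of that array taken as given, which makes the distances rest on an unmeasured value, RLA-DMB, a class II histocompatibility chain, was at 0.44, LPL, the lipoprotein lipase, at 0.53, IGSF6 at 0.78, TNFAIP8L2 at 0.81, and STK17B, a kinase, at 0.93. The median gene was then at 2.09. With signals below background set to their limit, the nearest was APOD, an apolipoprotein, at 0.29, then RLA-DMB at 0.40, and LPL at 0.53, and the median was 1.55. Of the first 5 genes 2 were among the nearest 5 by this measure. For TIMP1 this setting could change nothing, since TIMP1 and its 885 candidates were well above background on all 4 arrays.

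Over the 3 measured arrays alone, a choice made after the data were seen, 0 of the first 5 genes were among the nearest 5. SORL1 and PSAT1 were then both at 0.15, APOD at 0.26 and PPARG at 0.28, with the median at 1.36, while RLA-DMB had 5 genes nearer and LPL 9. LPL had levels of 0.69 at the ISC level, -1.74 in the L3/4 control, 2.81 at the fused levels and 0.26 in the L2/3-L4/5 control. With the signal as given, TIMP1 was at 2.12 from TIMP4 with 509 genes nearer, close to the median of 2.09. It lay farther than the median gene using the limit, at 1.72 with 720 nearer, and over the 3 arrays, at 1.84 with 870 nearer. TIMP3 was at 1.94, 1.46 and 1.47, with 284, 337 and 636 genes nearer.

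**Figure D4:**
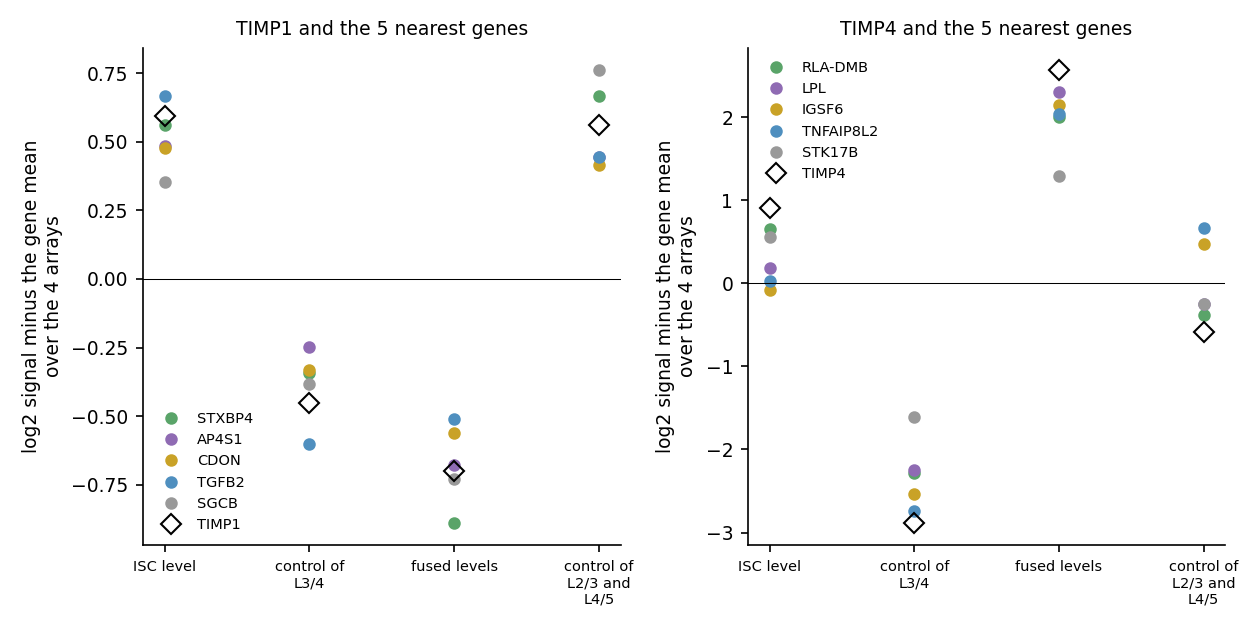
Log2 signal minus the gene's mean over the 4 arrays (vertical axis) on each array (horizontal axis) for TIMP1 (left) and TIMP4 (right), drawn as open diamonds, and for the 5 genes nearest to each, drawn as points. The TIMP1 neighbours lie within 0.12 to 0.16 (RMS) of it and those of TIMP4, taken with its below-background L3/4 control signal as given, within 0.44 to 0.93.

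Markers of other cell types moved between the same arrays, and their part in the TIMP values was not tested. In bulk tissue fewer cells of a type and less RNA per cell cannot be told apart. Skeletal muscle markers (14 of 24 named) had a summed signal of 874 times the 75th percentile in the L2/3-L4/5 control, against 28.2 at the ISC level, 27.9 in the L3/4 control and 14.8 at the fused levels. TIMP1 was high on the L2/3-L4/5 control, which had the most muscle signal. It was also high on the ISC array, whose muscle signal was close to that of the L3/4 control. At the fused levels all 12 muscle markers that were measured were at least 2-fold lower than in their control, where 9.15% of all features were, with a median of -5.87.

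Adipocyte markers (5 of 12 named) had their highest summed signal at the fused levels, but not every member did. The sum was 20.1 at the fused levels, 7.89 at the ISC level, 6.09 in the L2/3-L4/5 control and 4.99 in the L3/4 control. ADIPOQ, which encodes adiponectin, had levels of 3.48, 2.49, 2.15 and 1.55 in that order, which is the order of TIMP4, as is that of LPL. PPARG, a regulator of fat cell genes, was highest in the L3/4 control at 0.63, the array where TIMP4 was not well above background, and stood at 0.40 at the fused levels, -1.37 at the ISC level and -2.23 in the L2/3-L4/5 control. LEP, which encodes leptin, was at -1.04 at the fused levels and between -2.34 and -2.29 on the other arrays. At the fused levels 4 of 4 measured stood 2-fold or more above the control, where 7.82% of all features did, with ADIPOQ at 1.32 and LPL at 2.55 and a median of 1.94. On the ISC array 1 was 2-fold or more above, LPL at 2.43, and 1 below, PPARG at -2.0, where 9.08% and 10.5% of all features were. All 5 were well above background on the fused array.

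Blood and marrow markers were also highest on the fused array. Neutrophil and marrow markers (6 of 14 named) summed to 316 at the fused levels, 7.90 at the ISC level, 13.9 in the L3/4 control and 6.2 in the L2/3-L4/5 control, and 6 of 6 were at least 2-fold higher at the fused levels, where 7.82% of all features were. Red blood cell markers (2 of 10 named) summed to 1152 at the fused levels, 434 at the ISC level, 780 in the L3/4 control and 272 in the L2/3-L4/5 control. Macrophage markers (2 of 12 named) summed to 2.51, 1.23, 0.728 and 1.06 in the order of fused levels, ISC level, L3/4 control and L2/3-L4/5 control.

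The other marker lists are given as summed signal in the order of ISC level, L3/4 control, fused levels and L2/3-L4/5 control. Tendon and ligament markers were at 687, 605, 563 and 667. For the ISC level COL1A2 was the 1 of 5 above its control, with OGN, a small proteoglycan of the same list, at -0.60 and a list median of -0.23. Smooth muscle markers (4 of 10 named) were at 26.4, 65.3, 38.0 and 36.9, and endothelial markers (5 of 11 named) at 2.27, 3.05, 7.65 and 2.26. The endothelial sum of 7.65 rested mainly on VCAM1, with a level of 2.72 on the fused array and 0.51 in the L2/3-L4/5 control. Between these arrays VCAM1 was at 2.21, while SELE at 0.54, NOS3 at 0.27 and SOX17 at -0.04 were under 2-fold. KDR had no value in that comparison. Cartilage and bone markers (3 of 13 named) were at 19.7, 23.8, 11.5 and 18.1, Schwann and neural markers (2 of 8 named) at 1.29, 2.79, 2.37 and 0.853, and lymphocyte markers (2 of 9 named) at 0.348, 0.579, 0.496 and 0.503.

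**Figure D5:**
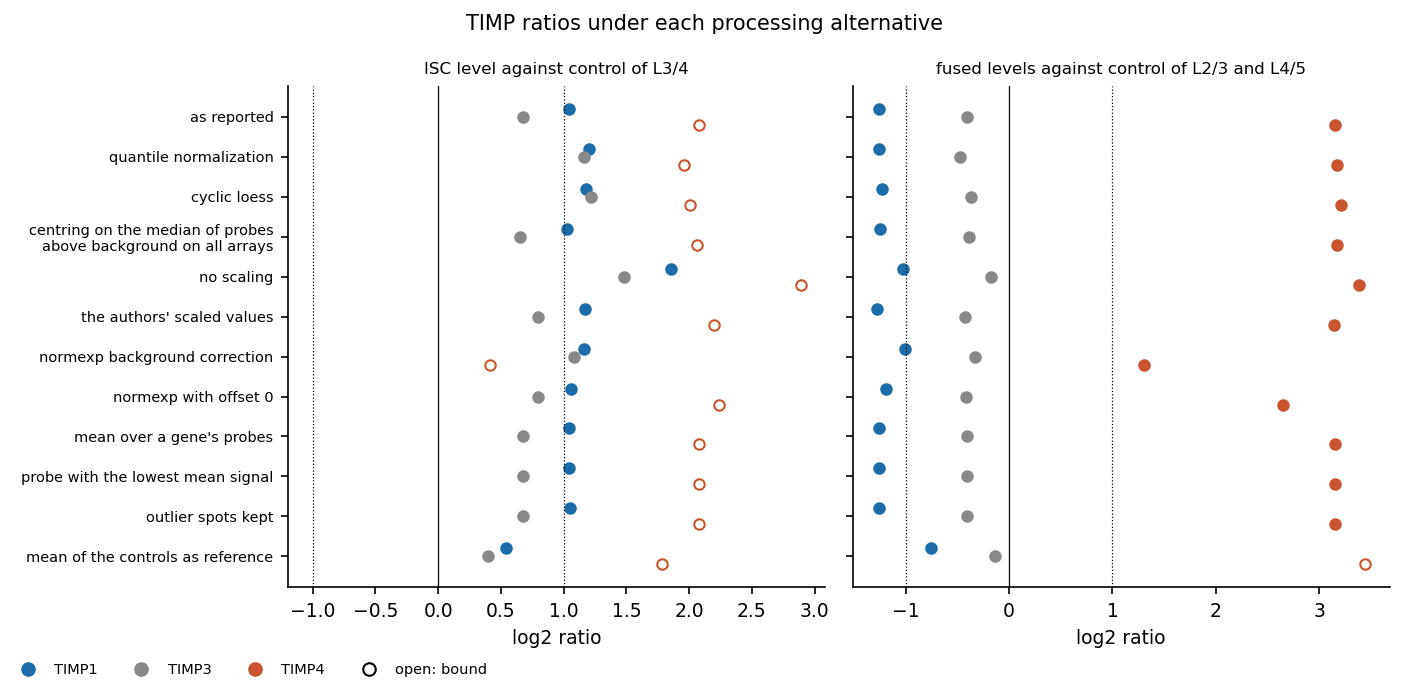
Log2 ratio (horizontal axis) of TIMP1, TIMP3 and TIMP4 for the ISC level (left) and the fused levels (right) under each processing setting (vertical axis), with dotted lines at 2-fold and open points for bounds. TIMP1 lies between 0.54 and 1.86 for the ISC level and between -1.27 and -0.75 for the fused levels, and TIMP4 falls to a bound of 0.41 and a ratio of 1.30 with normexp background correction.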

How the data were processed

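Cy3-labelled cDNA was made from 20 ng of total RNA, per the labels' protocols, and hybridised to 1 single-colour Agilent array per group. Per the submitters' processing notes, the scans were read by Agilent Feature Extraction 12.0.3. What was deposited are linear spot intensities that this software had background-subtracted and detrended within each array, per the file headers. The authors' deposited value table holds intensities equal to the processed signal times 1 factor per array; how the factors were chosen is not given in the sources used here, and the table was used only as an alternative. Its medians were 515.5 (ISC level), 442.3 (L3/4 control), 498.4 (fused levels) and 504.0 (L2/3-L4/5 control).

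Levels are log2 of the processed signal less that of the 75th percentile of non-control probes on the array, a signal of 93.7, 53.4, 85.4 and 72.7 in the same order. Outlier spots, 3 to 7 per array, were left out. Replicate spots of a probe had a median SD, in log2 units, that lay between 0.11 and 0.14. Probes were named by RefSeq accession without version through a RefSeq table of mOryCun1.1, for names alone. This named 3792 of 43603 probes, and probes without such an accession are unnamed here. A feature is a named gene, represented by its probe with the highest mean signal, or an accession or probe name (22901 features). To count as measured, a feature had to be well above background on each array compared. A bound sets the signal of the bright array against the higher of the dim signal and the dim array's lowest signal well above background.

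Named genes are the TIMP genes, list members at least 2-fold apart or bounded by it (up to 3 a direction), the 5 genes nearest in pattern to each inhibitor, and up to 2 extreme members of each marker list, some left out for length; other genes were named after their values were seen. The members and the 8 pathway and 11 marker lists were chosen with earlier results of these data known. Alternatives were cyclic loess, quantile normalization, median centring, no scaling, the authors' scaled values, normexp (on median spot signals, offset 50), other choices of probe, outlier spots kept, other fold sizes and other filters. Normexp with offset 0, the mean of the controls and the pattern distances over measured arrays alone were added after the data were seen. The scripts were tested on simulated data. Python 3.11.15, pandas 2.3.3, R 4.3.3 and limma 3.58.1 were used.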

Additional observations from a re-analysis of the deposited data

Results flagged for a closer look

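TIMP1 had opposite signs in the comparisons of an operated level with its control, at 1.05 for the ISC level and -1.26 for the fused levels, both past 2-fold. Of the substrate genes listed, BGN did the same, at 1.27 and -2.07, and COL8A1, at 1.30 and -1.68. BGN kept its 2-fold size for the ISC level in 8 of 10 alternatives, the lowest at 0.47. The share of all features with such opposite signs is not given here. With 1 array per group these differences between the comparisons were not tested. The controls of both comparisons also differed, by -1.01 for TIMP1 and -1.12 for BGN, but by only -0.10 for COL8A1.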

How the results depend on the processing

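Of 124 alternative values for TIMP1 and TIMP4, 99 kept their side of 2-fold and moved by no more than the spot error of the ratio, 18 moved by more, 5 fell under 2-fold and 2 passed it. The 99 include alternatives that could not differ, since each gene has 1 probe and another choice of probe returns the same value. Keeping outlier spots could act only through the array's percentile, as no TIMP spot was an outlier. The count is therefore no measure of how firm the values are. Without scaling, TIMP1 was at 1.86 in the ISC comparison, -1.03 in the fused one, -1.46 between the controls, 0.40 for the ISC level against the L2/3-L4/5 control and 0.43 for the fused levels against the L3/4 control, while the TIMP4 values were 2.89 (bound) for the ISC level, -1.03 (bound) between the controls, and 1.86 and 4.41 (bound) for the same last pair. Normexp with offset 50, an offset above the TIMP4 signal on 3 of 4 arrays, gave TIMP1 -1.0 for the fused levels and 0.045 for the fused levels against the L3/4 control. It gave TIMP4 0.41 for the ISC level and 1.30 for the fused levels, -0.042 between the controls, -0.93 for the ISC level against the fused levels, and 0.37 and 1.34 for the last pair. Normexp with offset 0 gave TIMP4 2.23 (bound), 2.65 and -1.05 (bound) in the ISC, fused and control comparisons. It gave TIMP4 1.18 for the ISC level against the L2/3-L4/5 control. With the mean of the controls TIMP1 was at 0.54 and -0.75, and TIMP4 at 1.79 and 3.44 (both bounds). PLAU, with its dimmest probe, was at -0.58 for the fused levels, so its sign turned.

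Features at least 2-fold apart numbered 2687 (ISC level), 2328 (fused levels) and 2308 (controls). With normexp they were 523, 698 and 417, at 1.5-fold 6093, 5058 and 5120, at 3-fold 800, 961 and 762, and with features above background on at least 1 array 4655, 4032 and 4216. Without scaling the ISC count was 4652. The share of these features that were higher was 46.4% for the ISC comparison (58.9% with the authors' scaled values, 66.3% with normexp, 94.5% without scaling), 46.1% for the fused levels (61.9% with normexp, 65.2% without scaling) and 47.7% between controls (32.9% and 14.8%). The authors' scaling moved the ISC median of all features from -0.17 to -0.04. No paired analysis was possible because each group has 1 array. The dim signal of TIMP4 limits its ratios, and in the L3/4 control it gives only a bound.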
